A study of Mus musculus with 12 samples.

Results

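The IL-23 and IL-17 axis was followed here as 10 genes, picked by name from the 23337 gene symbols of each count file, in a choice made with earlier results of these data known. They are the subunit genes Il23a, Il12b, Il12a and Ebi3, the cytokine genes Il17a and Il17c, the receptor chain genes Il17ra, Il17rc and Il17re, and the adaptor gene Traf3ip2. All 10 were in the files, and 6 of them passed the count filter of the test across genes, against 14134 of all symbols. Il12b, Il12a, Il17a and Il17c did not pass it and are given by their reads.

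IL-23 is a secreted pair of the Il23a and Il12b products, and it acts on a receptor of Il23r and Il12rb1 to maintain lymphocytes that make IL-17A and IL-17F. The Il12b product also pairs with that of Il12a to give IL-12, and Ebi3 partners Il12a in IL-35 and Il27 in IL-27. IL-17A signals to epithelium through Il17ra with Il17rc, whereas IL-17C, which is made by epithelial cells themselves, uses Il17ra with Il17re. Both receptors pass the signal to Act1, the product of Traf3ip2, and from there to NF-κB and to proteins that stabilise chemokine and antimicrobial transcripts.

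Reads were counted per gene in 12 libraries of polyA RNA from oesophageal epithelium, peeled from the stroma of C57BL/6 mice aged 6 weeks, with 3 libraries in each of 4 genotype groups. The Ikkβca+Stat3KO group carried ED/L2-Cre+, ROSA26-StopFL-Ikk2ca+/L and Stat3L/L, which is Cre under an Epstein-Barr virus promoter active in this epithelium, a constitutively active IKKβ behind a stop cassette that Cre removes, and floxed Stat3. Ikkβca mice carried the Cre and the kinase allele, with no floxed Stat3 given in their genotype, Stat3KO mice the Cre and floxed Stat3, and Control mice ROSA26-StopFL-Ikk2ca+/L with Stat3L/L and no Cre. The kinase allele is called active below only where Cre was present. All 3 altered groups carried Cre and Control did not, so only comparisons among those 3 are matched for it. No label ties each library to an animal of its own, so every p measures the spread between these libraries, which may be technical. In bulk RNA a larger number of cells of a type and more RNA per cell cannot be told apart.

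Libraries held 14816468 to 30188363 counted reads. Stat3 was counted at 154 to 194 CPM (counts of a gene as a rate of all counts in its library, after scaling between libraries) in Ikkβca+Stat3KO, 158 to 239 in Ikkβca, 139 to 154 in Stat3KO and 157 to 179 in Control, and it passed in no comparison. The labels do not say which exons Cre removes, so a count over the whole gene does not check the deletion. Ikbkb, which encodes IKKβ, stood at 83.4 to 97.0 CPM in Ikkβca+Stat3KO and 84.6 to 97.7 in Ikkβca, against 61.2 to 72.4 in Stat3KO and 59.7 to 82.6 in Control. All 10 markers of oesophageal epithelium, among them Krt5, Krt14 and Trp63, were counted in every library, and none of them passed in a comparison. Gastric transcripts were high in Ikkβca replicate 1 (1709 CPM summed over 11 genes) and Stat3KO replicate 3 (113 CPM). The suprabasal keratins Krt4 and Krt13 took 4.05 to 13.9% of the reads, and varied within every group.

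The promoters of the IL-17 cytokine genes and of Il12b, the partner of Il23a, are shown because IKKβ activates NF-κB, which binds kappa B sites, and floxed Stat3 encodes a STAT protein. RefSeq promoters on GRCm38.p6, running from 250 bases before the start to 50 after it, were listed for 7 of the 10 genes (8 promoters), with none for Il23a, Il17ra or Traf3ip2. The search used GGGNNNNNCC for kappa B and TTCNNNGAA for STAT proteins, on both strands, and capitals mark a kappa B match.
Il17a, chr1:20730655-20730954, plus strand: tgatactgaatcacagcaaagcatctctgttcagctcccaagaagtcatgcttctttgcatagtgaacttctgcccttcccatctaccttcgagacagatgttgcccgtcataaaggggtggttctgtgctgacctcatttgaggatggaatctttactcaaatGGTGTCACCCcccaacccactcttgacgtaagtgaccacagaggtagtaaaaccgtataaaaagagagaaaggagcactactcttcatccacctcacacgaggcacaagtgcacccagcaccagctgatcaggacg
Il17c, chr8:122421770-122422069, plus strand: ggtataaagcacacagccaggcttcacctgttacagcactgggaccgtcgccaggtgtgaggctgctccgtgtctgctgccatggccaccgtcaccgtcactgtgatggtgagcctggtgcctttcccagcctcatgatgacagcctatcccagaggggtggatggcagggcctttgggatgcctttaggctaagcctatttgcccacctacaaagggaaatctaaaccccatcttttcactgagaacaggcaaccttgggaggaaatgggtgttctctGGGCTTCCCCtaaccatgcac
Il12b, chr11:44399813-44400112, plus strand: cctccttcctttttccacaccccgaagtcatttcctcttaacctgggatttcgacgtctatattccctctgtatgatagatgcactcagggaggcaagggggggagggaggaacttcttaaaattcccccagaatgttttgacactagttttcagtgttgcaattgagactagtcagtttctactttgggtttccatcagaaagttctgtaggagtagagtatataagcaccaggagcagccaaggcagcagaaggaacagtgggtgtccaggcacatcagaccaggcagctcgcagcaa
In Il17a the match begins 86 bases before the start, in Il17c it begins 29 bases after the start, and the Il12b window holds none. A kappa B match occurred in 5 of the 8 promoters, against 50.8% of all 32851 promoters of that length, and a STAT match in 0 of 8, against 8.3%. A match describes letters and is not a shown binding site.

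Il23a, the subunit that makes IL-23 distinct from IL-12, was the only member that separated all libraries with the active kinase allele from all those without it. The gene lies on the minus strand of chromosome 10 (128296139 to 128298752, mm10, 3 exon blocks). It had 75, 116 and 96 reads in Ikkβca+Stat3KO, 94, 57 and 125 in Ikkβca, 9, 2 and 4 in Stat3KO and 3, 4 and 4 in Control. As CPM these were 3.75, 6.74 and 5.02 in Ikkβca+Stat3KO, 4.45, 2.76 and 5.37 in Ikkβca, 0.406, 0.0879 and 0.218 in Stat3KO and 0.168, 0.209 and 0.152 in Control. The lowest Ikkβca library exceeded the highest Stat3KO library, so both groups with an active kinase were separate from both groups without one. Ikkβca+Stat3KO and Ikkβca overlapped, as did Stat3KO and Control.

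**Figure D1:**
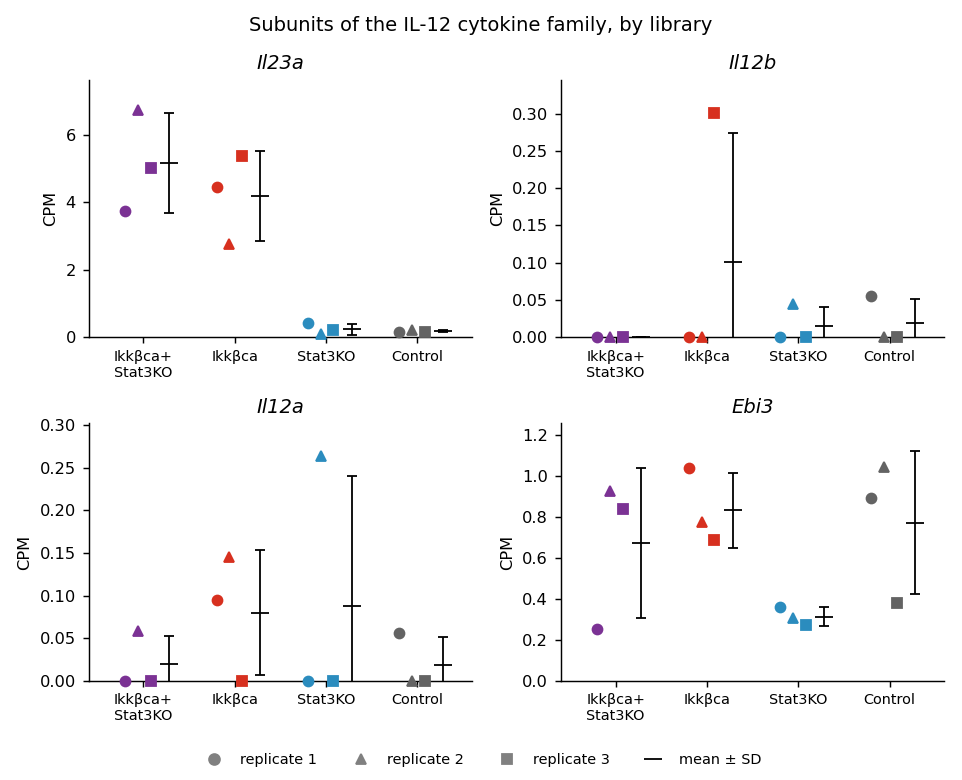
CPM of the 4 genes that encode IL-12 family subunits, by group, with 1 marker per library and the mean ± SD in black (bars end at 0). Il23a lay between 2.76 and 6.74 CPM in the 6 libraries with the active allele and at most at 0.406 CPM in the others, and the other panels have much lower axes.

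Ikkβca epithelium had 23.2-fold more Il23a than Control (log2 fold change 4.54 ± 0.51 SE, 3 libraries each, edgeR quasi-likelihood test, Benjamini-Hochberg adjusted p = 0.00249). It was the 1 member of 6 tested that was called higher, while 0.899% of all genes tested were, and 9.34% of genes had every Ikkβca library above every Control library. Il23a, with at most 9 reads in a Stat3KO library and 4 in a Control library, needed the groups with the active allele to pass the count filter. Counts of 1 in 6 thus describe the members that passed and not the whole set. Against Stat3KO, where both groups carry Cre, Ikkβca+Stat3KO had 21.3-fold more (4.41 ± 0.50, edgeR adjusted p = 0.00302), and Il23a was again the only 1 of 6 called, against 0.41% of all genes called higher. Ikkβca+Stat3KO stood 28.6-fold above Control (4.84 ± 0.52, edgeR adjusted p = 0.00213), where 0.566% of all genes were called higher. Averaged over both Stat3 backgrounds, the log2 fold change with the active allele was 4.47 ± 0.36 (edgeR adjusted p = 8.5e-05), with 2.12% of all genes called higher. In 1.52% of all genes every library with the active allele lay above every library without it. The exact two-sided permutation p within Stat3 status was 0.005, the smallest it can be, and for 3 libraries against 3 the smallest is 0.1, which each of these pair comparisons reached.

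No difference in Il23a with Stat3 loss was detectable in these libraries. The Stat3KO group mean was 0.237 ± 0.16 CPM and that of Control 0.176 ± 0.029 CPM (SD, n = 3 each), a log2 fold change of 0.43 ± 0.57 (edgeR adjusted p = 0.924). Ikkβca+Stat3KO averaged 5.17 ± 1.5 CPM and Ikkβca 4.19 ± 1.33 CPM, a log2 fold change of 0.30 ± 0.40 with a 95% interval from -0.58 to 1.19 (edgeR adjusted p = 0.839). The test of whether the active allele acted differently on Il23a without Stat3 gave -0.12 ± 0.65, with an interval from -1.54 to 1.29 (edgeR adjusted p = 1.0). No gene of 14134 was called by edgeR for Stat3KO against Control, for Ikkβca+Stat3KO against Ikkβca or for this interaction (0% in each). At an unadjusted p below 0.05 there were 1060, 1396 and 658 genes in these, and DESeq2 called 106, 131 and 6. With no difference in any gene, a share of 0.05 of the 14134 would be expected below that unadjusted p. In order of level, Ikkβca+Stat3KO and Ikkβca did not differ beyond their spread, nor did Stat3KO and Control below them.

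Of 12 markers of dendritic and Langerhans cells, which can make IL-23, 8 were tested. Averaged over Stat3 status edgeR called 5 of the 8 higher with the active allele, and 3 to 5 when 1 library was left out. Of all genes 2.12% were called higher there. The summed level of all 12 markers was 197 to 331 CPM in Ikkβca+Stat3KO and 262 to 352 in Ikkβca, against 178 to 234 in Stat3KO and 159 to 211 in Control. Epcam and H2-Ab1 made up most of it: Epcam, also an epithelial gene, averaged 133 CPM in Ikkβca+Stat3KO, 91.1 in Ikkβca, 137 in Stat3KO and 108 in Control, and H2-Ab1, a class II gene, 111, 178, 56.5 and 67.2 CPM in the same groups. Epcam was thus lowest in Ikkβca and H2-Ab1 highest there. Of 8 tested, 3 rose in Ikkβca against Control: Itgax, encoding CD11c, by 2.28 ± 0.44, the class II transactivator Ciita by 2.02 ± 0.40, and langerin, encoded by Cd207, by 2.52 ± 0.50. Flt3, with at most 7 reads in a Control library and 11 in a Stat3KO library, needed the groups with the active allele to pass the count filter. Of all genes 0.899% were called higher in Ikkβca against Control. The calls of this pair depended on single libraries, with 0 left without both libraries rich in gastric transcripts, and 0 to 4 when single libraries were left out. None of the 8 passed in edgeR in Ikkβca+Stat3KO against Control or against Stat3KO, where Itgax was at 1.28 ± 0.44 and 2.08 ± 0.45. At an unadjusted p below 0.05 there were 3 and 5 of them, and DESeq2 called 0 and 2. Without both gastric-rich libraries Il23a was at 4.5 for Ikkβca against Control and 4.34 for Ikkβca+Stat3KO against Stat3KO. Markers of macrophages and monocytes, another source of IL-23, summed over 12 genes to 47.2 to 99.5 CPM in Ikkβca+Stat3KO, 119 to 148 in Ikkβca, 42.9 to 114 in Stat3KO and 53.9 to 124 in Control, and edgeR called none of 11 tested in any comparison, with 2 at an unadjusted p below 0.05 for Ikkβca against Control and 4 for Ikkβca+Stat3KO against Ikkβca. The part of these cells in the Il23a level was not tested.

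The partner subunit that IL-23 needs was almost absent from the counts. Il12b (chromosome 11, 44400063 to 44414033, plus strand) had 0, 0 and 0 reads in Ikkβca+Stat3KO, 0, 0 and 7 in Ikkβca, 0, 1 and 0 in Stat3KO and 1, 0 and 0 in Control. All 7 Ikkβca reads came from replicate 3, the library with the most Il23a reads. The 0 reads of Ikkβca+Stat3KO allow up to 0.0533 CPM for the group (3 reads), and the ratio of Ikkβca to Control was 6.80 with an exact 95% counting interval from 0.874 to 307. Such intervals and limits cover counting error only. Il12a (chromosome 3, 68690644 to 68698547, plus strand), the other partner of Il12b, had 0, 1 and 0 reads in Ikkβca+Stat3KO, 2, 3 and 0 in Ikkβca, 0, 6 and 0 in Stat3KO and 1, 0 and 0 in Control. Neither gene separated any pair of groups. Per kilobase of exon Il23a averaged 2.30 ± 0.666 CPM in Ikkβca+Stat3KO and 1.87 ± 0.591 in Ikkβca, where Il12b was at 0 and 0.0510 ± 0.0883 (SD, n = 3 each).

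Ebi3 (chromosome 17, 55952640 to 55957022, plus strand) did not show the Il23a pattern and passed in no comparison. It had 0.250, 0.929 and 0.837 CPM in Ikkβca+Stat3KO, 1.04, 0.774 and 0.688 in Ikkβca, 0.361, 0.308 and 0.273 in Stat3KO and 0.895, 1.05 and 0.381 in Control. The lowest library was Ikkβca+Stat3KO replicate 1, followed by the 3 Stat3KO libraries, which were all below Control but by a small margin from Control replicate 3. The log2 fold change of -1.27 ± 0.55 for Stat3KO against Control did not pass (edgeR p = 0.0432, adjusted p = 0.647, exact permutation p = 0.1), and in 6.1% of all genes the groups were separate in that direction. With the active allele Ikkβca+Stat3KO was at -0.32 ± 0.52 against Ikkβca, and the interaction was 0.95 ± 0.76. Ikkβca+Stat3KO was at 1.07 ± 0.56 against Stat3KO (edgeR adjusted p = 0.624), above 0 in every alternative (0.77 to 1.48), while Ikkβca was at 0.12 ± 0.52 against Control. Ebi3 reads, 5 to 22 per library, may include those of the antisense gene Gm16712, which overlaps it by 2252 bases, since the strand setting of the counting is not given in the sources used here. Il27, its partner in IL-27, had 1 read in all, in Ikkβca+Stat3KO replicate 2.

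By likeness of pattern over the 12 libraries, the genes nearest to Il23a were H2-M2, Cxcl1, Foxs1, Wnt10b and Lgi2. The measure was the root mean square difference of log2 CPM after centring each gene, and it was 0.464, 0.550, 0.575, 0.595 and 0.603 for these. H2-M2, a non-classical MHC class I gene, averaged 1.95 CPM in Ikkβca+Stat3KO, 1.64 in Ikkβca, 0 in Stat3KO and 0.0174 in Control. Cxcl1, a neutrophil chemokine gene, averaged 1.91, 1.5, 0.0933 and 0.0348 CPM in Ikkβca+Stat3KO, Ikkβca, Stat3KO and Control. Of the other 5 members that passed the count filter the nearest was Ebi3 at 1.89, and the 4 members below the filter were not ranked.

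Il17a (chromosome 1, 20730905 to 20734496, plus strand), the T cell cytokine gene downstream of IL-23, was read almost only in Ikkβca. It had 1, 0 and 0 reads in Ikkβca+Stat3KO, 7, 3 and 16 in Ikkβca, 0, 0 and 1 in Stat3KO and 0, 0 and 0 in Control. The lowest Ikkβca library had 3 reads and no library of another group had more than 1. With 26 reads against 0 over the group, the level in Ikkβca was at least 8.42-fold higher when Control is set at the 3 reads that 0 allows, and the exact 95% counting interval of the ratio begins at 6.38. Of the genes tested 9.34% were separate in that direction. Ikkβca+Stat3KO had 1 read against 26 in Ikkβca, a ratio of 0.0445 with an exact counting interval from 0.00108 to 0.271. In 7.54% of the genes tested these groups were separate in that direction. The exact permutation p was 0.1 in both comparisons. In an edgeR fit with no count filter neither passed, with adjusted p = 0.158 for Ikkβca against Control and adjusted p = 0.519 for Ikkβca+Stat3KO against Ikkβca.

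Il17f, the neighbouring cytokine of the same cells, had 0, 0 and 0 reads in Ikkβca+Stat3KO, 3, 1 and 3 in Ikkβca, 1, 0 and 0 in Stat3KO and 0, 0 and 0 in Control. Its Ikkβca level was at least 2.27-fold higher when Control is set at 3 reads, the exact counting interval begins at 1.40, and in Stat3KO replicate 1 it equalled the lowest Ikkβca count. Il21 and Il22, other products of these cells, had 0 reads in all 12 libraries, which allows up to 0.0121 CPM over them. Il23a did not differ detectably between Ikkβca+Stat3KO and Ikkβca. These groups held 1 and 26 reads of Il17a, a difference that did not pass in edgeR either. Whether Il23a and Il17a responded differently was not tested.

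**Figure D2:**
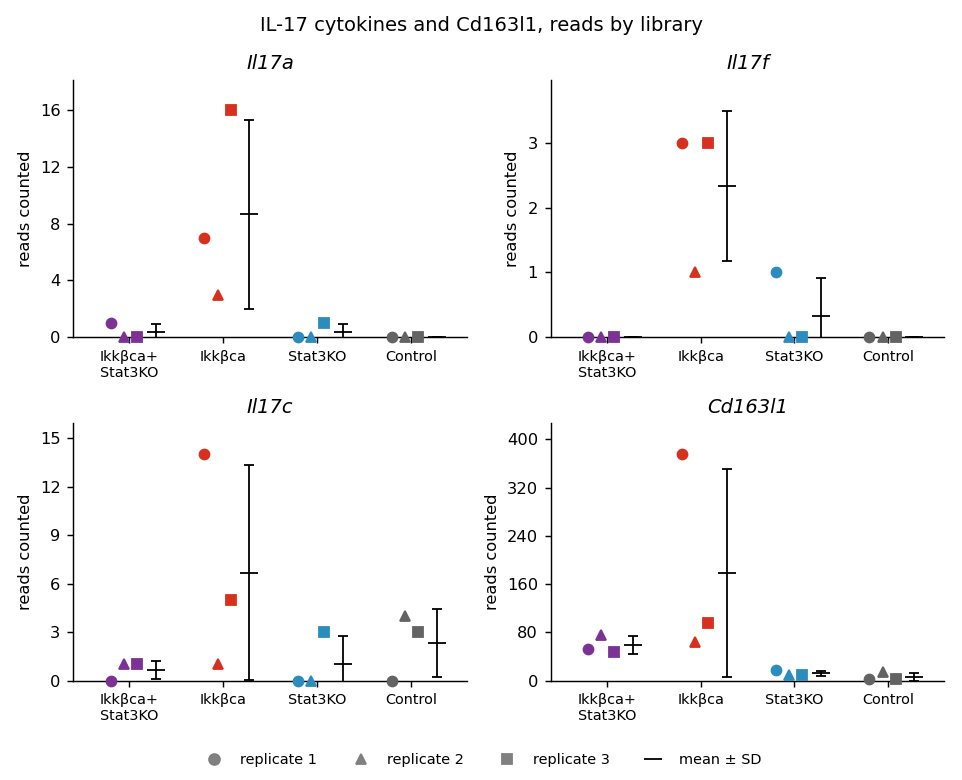
Reads of Il17a, Il17f, Il17c and the gamma delta T cell marker Cd163l1 by group, with 1 marker per library and the mean ± SD in black (bars end at 0). Il17a reads reached 16 in Ikkβca and at most 1 in any other library, and Cd163l1 was highest in Ikkβca replicate 1 with 376 reads.

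Markers of IL-17 producing T cells were also highest in Ikkβca when summed. Cd163l1, a scavenger receptor gene of gamma delta T cells, had 53, 76 and 47 reads in Ikkβca+Stat3KO, 376, 64 and 95 in Ikkβca, 17, 9 and 10 in Stat3KO and 2, 14 and 3 in Control. Cd3g, a chain of the T cell receptor complex, had 6, 19 and 9 reads in Ikkβca+Stat3KO, 64, 18 and 22 in Ikkβca, 3, 4 and 2 in Stat3KO and 1, 18 and 4 in Control. Ccr6, the receptor of the chemokine Ccl20, had 0, 1 and 1 reads in Ikkβca+Stat3KO, 6, 8 and 1 in Ikkβca, 2, 0 and 0 in Stat3KO and 0, 0 and 0 in Control. Reads of these genes were thus present in Ikkβca+Stat3KO, where Il17a had 1 read, but were fewer than in Ikkβca. Cd3g totalled 34 reads there against 104 in Ikkβca, Cd163l1 176 against 535 and Ccr6 2 against 15.

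Of 14 such markers in the files 12 were tested, some of which passed the count filter mainly through Ikkβca, such as Blk with 53 reads in Ikkβca+Stat3KO, 152 in Ikkβca, 5 in Stat3KO and 6 in Control. For Ikkβca against Control 2 rose, Il7r, the IL-7 receptor chain, by 3.53 ± 0.49 (edgeR adjusted p = 0.00696) and Cd163l1 by 4.71 ± 0.86 (edgeR adjusted p = 0.0306). Of all genes 0.899% were called higher there. The Cd163l1 call was lost without both gastric-rich libraries (3.51, edgeR adjusted p = 0.0699), with library totals (adjusted p = 0.0646) and with only the groups compared (adjusted p = 0.183). The count of 2 was 1 in 6 of the 12 fits that left out a library. For Ikkβca+Stat3KO against Ikkβca edgeR called 0 of the 12, with 3 at an unadjusted p below 0.05 and 0 called by DESeq2. In that comparison 0 of the 12 had a log2 fold change above 0, and the median was -1.19. Il7r was the 1 marker called in Ikkβca+Stat3KO, at 2.42 ± 0.49 against Control and 2.73 ± 0.50 against Stat3KO, where 0.566% and 0.41% of all genes were called higher. Either call was lost in 10 of the 12 fits that left out a library, with library totals, with only the groups compared and without the gastric-rich libraries (edgeR adjusted p = 0.0702 against Control and adjusted p = 0.164 against Stat3KO). The summed level of all 14 was 60.1 to 109 CPM in Ikkβca+Stat3KO, 120 to 123 in Ikkβca, 72.9 to 92.6 in Stat3KO and 72.3 to 96.1 in Control, most of it from Sox13 and Maf, and the marker at 0 in Control was Ccr6. The part of T cells in the Il17a reads was not tested.

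Il17c (chromosome 8, 122422020 to 122423639, plus strand), the epithelial IL-17, gave few reads in any genotype. It had 0, 1 and 1 reads in Ikkβca+Stat3KO, 14, 1 and 5 in Ikkβca, 0, 0 and 3 in Stat3KO and 0, 4 and 3 in Control. The groups overlapped, and 14 of the 20 Ikkβca reads came from replicate 1, the library richest in gastric transcripts. The ratio of Ikkβca to Control was 2.78 (exact counting interval 1.13 to 7.77, exact permutation p = 0.4), and that of Ikkβca+Stat3KO to Ikkβca 0.116 (0.0131 to 0.476, exact permutation p = 0.3). All of Il17c lies within the same-strand gene Gm20388, and how reads shared by both were counted is not given in the sources used here. Among the other ligands Il17d had 24 to 72 reads per library and Tgfb1 386 to 810, and neither passed in any comparison. Il17b and Il25 had 0 to 4 reads per library.

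The receptor chains were read in every library, and none passed the test in any of the 8 comparisons. Il17rc, on the plus strand of chromosome 6 (113471427 to 113483140), was the most abundant member with 96.1 CPM per kilobase of exon on average over the 12 libraries. Traf3ip2 followed at 16.1, Il17re at 8.71, Il17ra at 3.78 and Il23a at 1.09 CPM per kilobase. Ebi3 was at 0.562, Il17c at 0.177, Il17a at 0.0903, Il12a at 0.0302 and Il12b at 0.0170 CPM per kilobase. Il23a stood above Ebi3 only with the active allele: it averaged 2.30 CPM per kilobase in Ikkβca+Stat3KO and 1.87 in Ikkβca, where Ebi3 was at 0.583 and 0.723, but 0.106 in Stat3KO and 0.0785 in Control, where Ebi3 was at 0.272 and 0.670. Per kilobase of exon, merged over the transcripts of a gene, levels of the receptor chains and Traf3ip2 did not overlap with each other in any library. On that measure all 4 stood above Il23a throughout. In CPM Il17re and Traf3ip2 did overlap, with 65.6 and 48.7 in Control replicate 1 and 36.7 and 68.4 in Ikkβca+Stat3KO replicate 3.

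Il17rc, the co-receptor for IL-17A and IL-17F, had 280, 201 and 240 CPM in Ikkβca+Stat3KO, 233, 271 and 238 in Ikkβca, 269, 232 and 271 in Stat3KO and 276, 262 and 307 in Control. All pairs of groups overlapped. The active allele gave -0.14 ± 0.10 averaged over Stat3 status (95% interval -0.36 to 0.08, edgeR adjusted p = 0.535), and Stat3 loss -0.09 ± 0.10 averaged over kinase status.

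Il17ra (chromosome 6, 120463247 to 120487559, plus strand), the chain shared by the IL-17 receptors, had 38.0, 36.5 and 38.6 CPM in Ikkβca+Stat3KO, 37.8, 29.5 and 27.8 in Ikkβca, 31.2, 28.6 and 33.8 in Stat3KO and 32.0, 27.6 and 30.7 in Control. Ikkβca+Stat3KO was the highest group and was separate from Stat3KO and from Control, while Ikkβca replicate 1 reached its range. The difference was 0.32 ± 0.13 against Control (edgeR p = 0.0291, adjusted p = 0.354, exact permutation p = 0.1) and 0.27 ± 0.13 against Stat3KO (edgeR adjusted p = 0.578). Genes were separate in that direction in 7.2% and 6.06% of all tests.

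**Figure D3:**
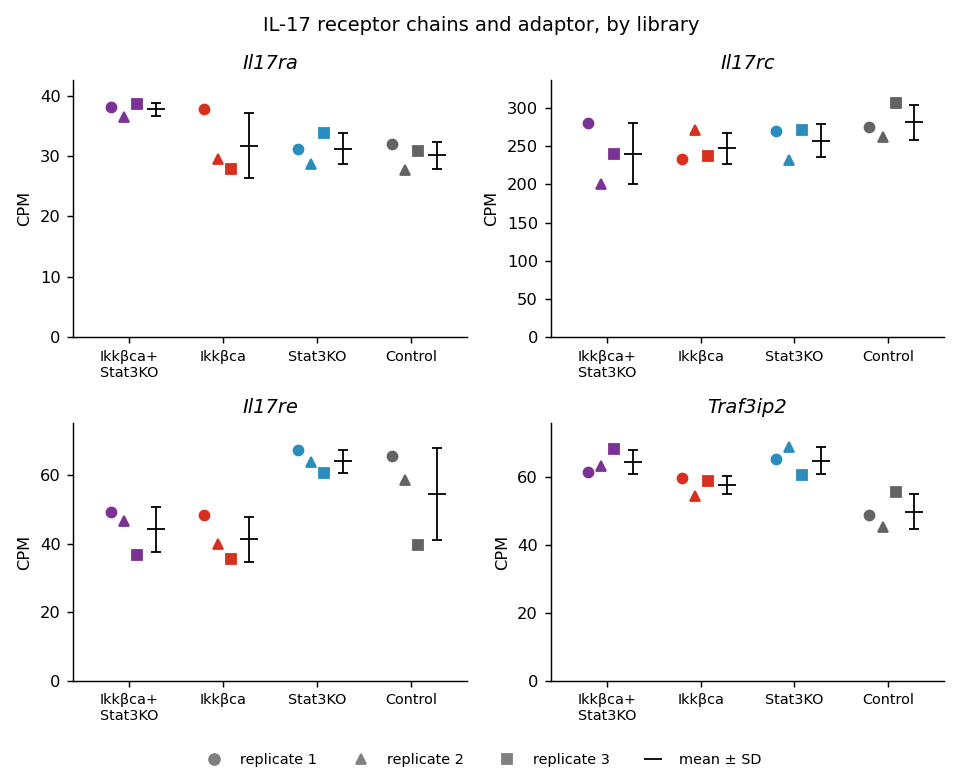
CPM of the receptor chain genes Il17ra, Il17rc and Il17re and of the adaptor gene Traf3ip2, by group, with 1 marker per library and the mean ± SD in black. Il17re lay at 35.5 to 49.3 CPM in the 6 libraries with the active allele and at 39.6 to 67.6 CPM in the others, and Traf3ip2 was lowest on average in Control.

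Il17re, the chain for IL-17C, lies 668 bases upstream of Il17rc (chromosome 6, 113458484 to 113470758, plus strand) and was lower in most libraries with the active allele. It had 49.3, 46.8 and 36.7 CPM in Ikkβca+Stat3KO, 48.5, 40.1 and 35.5 in Ikkβca, 67.6, 64.1 and 60.8 in Stat3KO and 65.6, 58.5 and 39.6 in Control. The libraries with the active allele were the lower ones, apart from Control replicate 3, which lay among them. Ikkβca+Stat3KO was separate from Stat3KO at -0.53 ± 0.19 (edgeR p = 0.0159, adjusted p = 0.370, exact permutation p = 0.1), and 6.87% of all genes were separate in that direction. Ikkβca was at -0.40 ± 0.19 against Control (edgeR adjusted p = 0.402).

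Averaged over both backgrounds, Il17re was at -0.47 ± 0.13 with the active allele, 0.723-fold (edgeR p = 0.00482, adjusted p = 0.111, exact permutation p within Stat3 status = 0.015), and 0.594% of all genes were called lower. It passed without Control replicate 3 (-0.56, edgeR adjusted p = 0.0252), in DESeq2 (-0.47, adjusted p = 0.0283) and with the Krt4 and Krt13 share as a covariate (-0.39, edgeR adjusted p = 0.0359). Control replicate 3 had the highest of those shares, 13.9%.

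Traf3ip2 (chromosome 10, 39612934 to 39655307, plus strand), which encodes the Act1 adaptor, was lowest on average in Control. It had 61.5, 63.3 and 68.4 CPM in Ikkβca+Stat3KO, 59.7, 54.5 and 58.7 in Ikkβca, 65.3, 68.7 and 60.5 in Stat3KO and 48.7, 45.2 and 55.6 in Control. Within each kinase status all 3 libraries with floxed Stat3 and Cre lay above the 3 without that pair. Averaged over kinase status Stat3 loss gave 0.27 ± 0.07, which is 1.21-fold (edgeR p = 0.0033, adjusted p = 0.180, exact permutation p within kinase status = 0.005, the smallest it can be). Of the alternatives run it passed in DESeq2 alone (adjusted p = 0.0451). Part of this average sets Stat3KO against Control, which has no Cre, so Stat3 loss and Cre cannot be told apart in that part. All libraries with floxed Stat3 and Cre also lay above all the others, as in 0.467% of all genes tested. Of all genes 0.0637% were called higher.

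Taken in pairs, Stat3KO was at 0.38 ± 0.10 against Control (edgeR adjusted p = 0.401), with 6.96% of all genes separate in that direction, and Ikkβca+Stat3KO at 0.16 ± 0.10 against Ikkβca (edgeR adjusted p = 0.627), with 7.12%. The interaction was -0.22 ± 0.14. The antisense gene E130307A14Rik, which overlaps Traf3ip2 by 33896 bases, had 18 to 66 reads per library, and Traf3ip2 itself had 865 to 1564 reads.

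**Figure D4:**
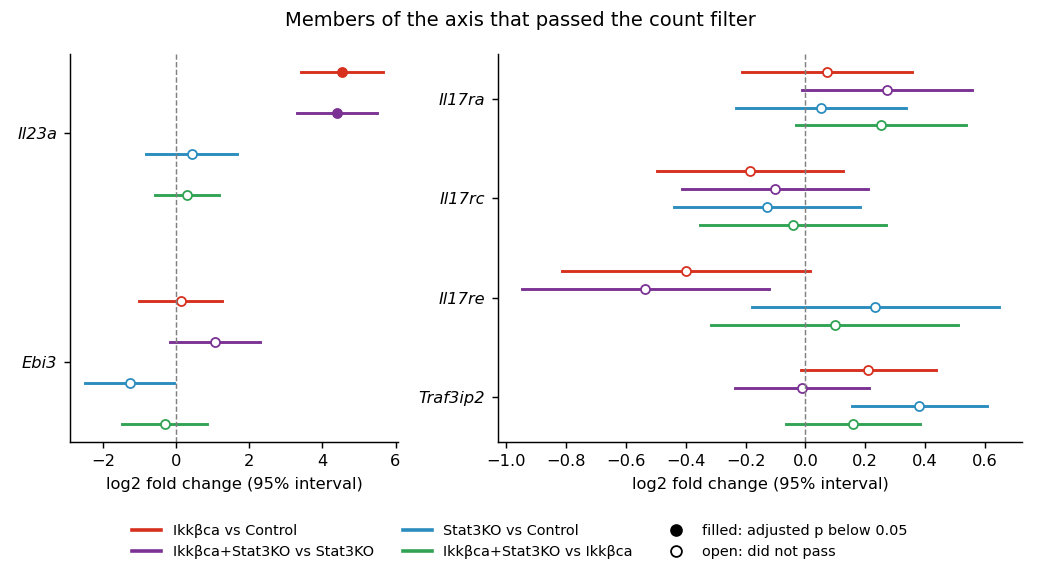
Log2 fold changes with 95% intervals for the 6 members tested, in 4 comparisons, with filled points for an adjusted p below 0.05 (edgeR). Il23a stands past 3 in both comparisons that add the active allele, and no other point is filled.

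The receptor for IL-23 itself was barely read. Il23r had 6, 6 and 3 reads in Ikkβca+Stat3KO, 11, 7 and 13 in Ikkβca, 10, 3 and 3 in Stat3KO and 5, 3 and 4 in Control. Ikkβca was separate from Control (1.27 ± 0.58, edgeR adjusted p = 0.387), as in 9.34% of all genes in that direction. Il12rb1, the partner chain of Il23r, had 1, 9 and 4 reads in Ikkβca+Stat3KO, 25, 9 and 10 in Ikkβca, 2, 0 and 3 in Stat3KO and 2, 2 and 3 in Control. Ikkβca had the most reads of both chains, but single libraries of other groups reached its lowest ones, at 10 reads of Il23r and 9 of Il12rb1. Of 11 other receptor genes of these families, Il23r and Il12rb1 included, 9 were tested and none passed in any of the 8 comparisons, nor did any of 7 genes of IL-23 receptor signalling, which include Jak2, Tyk2 and Stat4.

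Downstream of the IL-17 receptors, 19 signalling genes were tested, and 2 rose in Ikkβca against Control, where the median of the 19 was 0.25. Of all genes 0.899% were called higher there. Zc3h12a, encoding the RNase Regnase-1 that restrains IL-17 signalling, stood at 103, 85.0 and 106 CPM in Ikkβca+Stat3KO, 155, 145 and 126 in Ikkβca, 50.6, 32.4 and 43.5 in Stat3KO and 42.7, 38.5 and 40.3 in Control. For Zc3h12a both groups with the active allele were separate from both without it, as in 1.52% of all genes in that direction. It rose by 1.81 ± 0.16 in Ikkβca against Control (edgeR adjusted p = 6.8e-04), by 1.27 ± 0.16 in Ikkβca+Stat3KO against Control (edgeR adjusted p = 0.00488) and by 1.22 ± 0.16 in Ikkβca+Stat3KO against Stat3KO (edgeR adjusted p = 0.00616). Tnip1, which binds the A20 protein, rose by 0.81 ± 0.14 in Ikkβca and 0.94 ± 0.14 in Ikkβca+Stat3KO, each against Control. Tnfaip3, encoding A20, rose in Ikkβca+Stat3KO by 1.66 ± 0.31 against Control and by 1.69 ± 0.31 against Stat3KO, and was at 1.32 ± 0.31 in Ikkβca (edgeR adjusted p = 0.0843). These regulators also respond to NF-κB without IL-17. Averaged over Stat3 status 6 of the 19 were called higher, against 2.12% of all genes, and 4 to 6 when 1 library was left out. For Ikkβca against Control the 2 fell to 1 in 5 of the 12 such fits, and DESeq2 called 5, adding Traf2, Traf3 and Tnfaip3. The 3 for Ikkβca+Stat3KO against Control were 1 without Ikkβca+Stat3KO replicate 3, and the 2 against Stat3KO were 1 in 9 of the 12 fits. In these 2 comparisons 0.566% and 0.41% of all genes were called higher. No gene of the list was called lower, and edgeR and DESeq2 each called 0 for Stat3KO against Control, with 1 at an unadjusted p below 0.05. Zc3h12a was lower in every Ikkβca+Stat3KO library than in any Ikkβca library (-0.54 ± 0.16), which did not pass (edgeR adjusted p = 0.373). In 7.54% of all genes these groups were separate in that direction.

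Genes that IL-17 induces in epithelium rose in both groups with the active allele. Of 25 listed genes in the files 16 were tested, and 9 rose in Ikkβca against Control, 7 in Ikkβca+Stat3KO against Control and 6 in Ikkβca+Stat3KO against Stat3KO, with none lower. Of all genes 0.899%, 0.566% and 0.41% were called higher in these comparisons. Cxcl5, Cxcl1, Defb3, Ccl20, Tnip3, Mmp13 and Lcn2 needed the groups with the active allele to pass the count filter. The counts of 9, 7 and 6 thus describe the genes that passed and not the whole list. Of the 9 genes below the filter Cxcl3 had 35 reads in Ikkβca+Stat3KO, 28 in Ikkβca, 0 in Stat3KO and 1 in Control, and Nos2 had 17, 18, 7 and 18 in the same groups. In Stat3KO against Control edgeR and DESeq2 each called 0, with 0 at an unadjusted p below 0.05. Between Ikkβca+Stat3KO and Ikkβca edgeR called 0, with 7 at an unadjusted p below 0.05, and DESeq2 called 2. The list shares many genes with NF-κB targets and was chosen with earlier results of these data known. Steap4, a metalloreductase gene, rose by 3.78 ± 0.34 in Ikkβca (edgeR adjusted p = 6.8e-04), by 3.24 ± 0.33 in Ikkβca+Stat3KO against Control (edgeR adjusted p = 0.00186) and by 3.19 ± 0.33 against Stat3KO. Tnip3, an inhibitor of NF-κB signalling, rose by 5.86 ± 0.66 in Ikkβca and 5.59 ± 0.66 in Ikkβca+Stat3KO, each against Control. Cxcl5, a neutrophil chemokine gene, had 242 reads in Ikkβca+Stat3KO, 448 in Ikkβca, 2 in Stat3KO and 1 in Control.

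Members of that list differed in how the combined group compared with Ikkβca, but most were lower in it. Of the 16 tested, 3 had a log2 fold change above 0 in Ikkβca+Stat3KO against Ikkβca, and the median was -0.70. S100a8, a calprotectin subunit, had 10.8, 11.7 and 41.9 CPM in Ikkβca+Stat3KO, 72.0, 123 and 185 in Ikkβca, 1.89, 2.24 and 1.69 in Stat3KO and 1.40, 0.941 and 1.10 in Control. Ccl20, the chemokine that draws Ccr6-bearing cells, had 9.76, 10.6 and 12.6 CPM in Ikkβca+Stat3KO, 3.36, 1.6 and 2.58 in Ikkβca, 0.0451, 0.0879 and 0.273 in Stat3KO and 0.0559, 0.314 and 0 in Control. Every Ikkβca+Stat3KO library was thus below every Ikkβca library for S100a8 and above each of them for Ccl20. The difference was -2.56 ± 0.50 for S100a8 (edgeR adjusted p = 0.218) and 2.13 ± 0.59 for Ccl20 (edgeR adjusted p = 0.353). These were the 2 that passed in DESeq2 (adjusted p = 2.2e-04 and adjusted p = 5.3e-04), and in 14.7% of all genes these groups were separate.

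**Figure D5:**
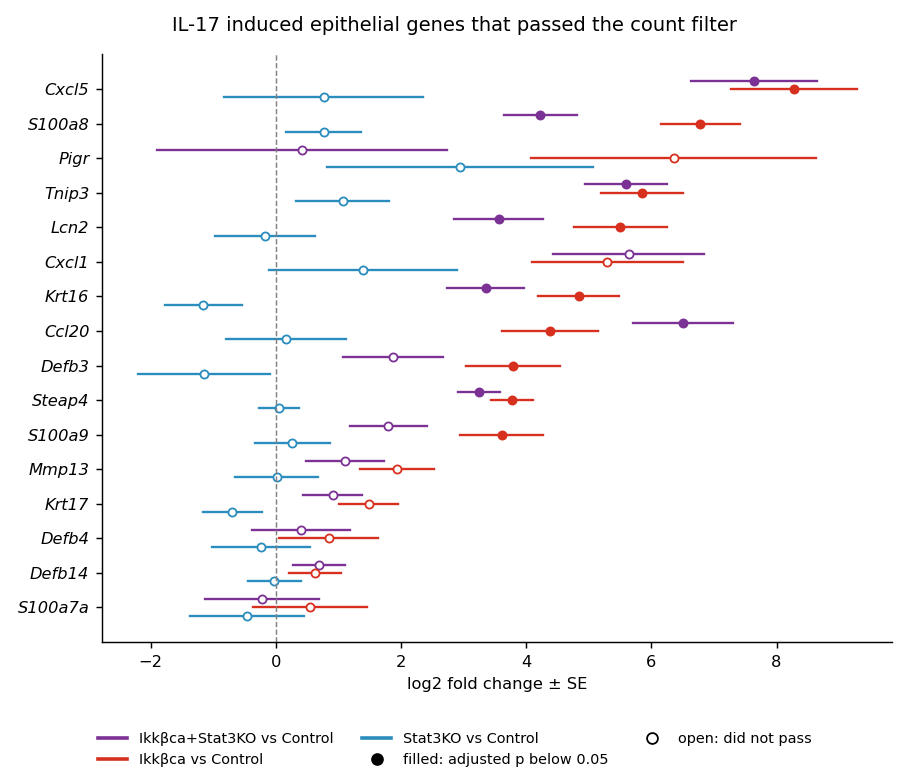
Log2 fold changes ± SE of the 16 IL-17 induced epithelial genes tested, for each group against Control, with filled points for an adjusted p below 0.05 (edgeR). Open blue points for Stat3KO scatter about 0, and 9 Ikkβca and 7 Ikkβca+Stat3KO points are filled; the 3 comparisons share the Control libraries.

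The counts of these called genes depended on single libraries. For Ikkβca against Control they were 5 to 8 when a library was left out, with 5 without Control replicate 1. For Ikkβca+Stat3KO against Control the range was 5 to 7, and a fit of those 6 libraries alone called 1. For Ikkβca+Stat3KO against Stat3KO the range was 1 to 8, with 1 without Stat3KO replicate 2.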

How the data were processed

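Per the submitters' processing notes, which give no order of steps, the tools named were cutadapt 1.13, STAR, HTSeq 0.6.1p1 and DESeq2, with the build mm10. The authors deposited 1 file of whole-number read counts per gene symbol for each library, with no normalization, and strand and multi-mapping settings are not given in the sources used here. Counts were fitted in R 4.3.3 with edgeR 4.0.16 (limma 3.58.1), using TMM scaling, the default expression filter (minimum count 10), robust quasi-likelihood tests and 1 fit of all 12 libraries, with Benjamini-Hochberg adjustment over all genes tested and a threshold of 0.05. The 8 comparisons were 5 between pairs of groups, the interaction, and each alteration averaged over the other. The fit was also run on simulated independent libraries with changes only in the groups with the active allele. Such data hold no differences in tissue content, so they do not check the fit against these.

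Single members were also tested by exact two-sided permutation of log2 CPM (prior count 2), stratified by the other alteration for averages. Members below the filter were compared by count ratios with exact 95% intervals, and against a group at 0 by a limit of 3 counts over the group. Gene positions came from GENCODE M21 on mm10. DESeq2 1.42.0, other scalings and filters, a replicate block and each library left out served as alternatives. Members and gene lists were chosen with earlier results of these data known. From each list at most the 4 called genes with the smallest adjusted p were named, besides defining markers of T cells and ligand and receptor genes given by reads, and the 5 genes with the pattern most like Il23a. The common dispersion was 0.0878.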

Additional observations from a re-analysis of the deposited data

How the results depend on the processing

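Il23a was called in every alternative run for the 4 comparisons that add the active allele, with log2 fold changes of 4.31 to 4.74 for Ikkβca against Control, 4.60 to 5.02 for Ikkβca+Stat3KO against Control, 4.01 to 5.06 for Ikkβca+Stat3KO against Stat3KO and 4.27 to 4.80 averaged. Averaged over Stat3 status the members called numbered 1, and 2 with the replicate block, with DESeq2 and with the Krt4 and Krt13 share as a covariate, which was chosen after seeing the data. Leaving out 1 library gave 1 to 2, with 2 without Control replicate 3, and the added member was Il17re each time. Averaged over kinase status they numbered 0, and 1 (Traf3ip2) with DESeq2. The cause was not tested.

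Some log2 fold changes turned sign, none of them called in that comparison under any alternative. Without both gastric-rich libraries Ebi3 was at -0.0613 and Il17ra at -0.070 for Ikkβca against Control, and with library totals Il17rc was at 0.0085 for Ikkβca+Stat3KO against Ikkβca. Leaving out 1 library gave these ranges of log2 fold change, and the cause was not tested. For Ikkβca against Control Ebi3 ran from -0.22 to 0.41 and Il17ra from -0.074 to 0.15. For Ikkβca+Stat3KO against Control Ebi3 ran from -0.53 to 0.21. For Ikkβca+Stat3KO against Ikkβca Ebi3 ran from -0.61 to 0.10 and Il17rc from -0.15 to 0.072. For Ikkβca+Stat3KO against Stat3KO Il17rc ran from -0.22 to 0.014 and Traf3ip2 from -0.063 to 0.033. For Stat3KO against Control Il17ra ran from -0.012 to 0.11 and Il23a from -0.23 to 0.83. In the interaction Il23a ran from -0.53 to 0.53, Il17rc from -0.017 to 0.20 and Il17re from -0.29 to 0.057.

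Whether replicate numbers shared between groups pair the libraries was not settled. Of 18 same-numbered pairs 9 had a correlation over 0.1, in a range from -0.41 to 0.45. Differently numbered pairs ranged from -0.54 to 0.39. With the replicate block Il17re was at -0.47 (edgeR adjusted p = 0.0173) and Il7r lost its call in Ikkβca+Stat3KO against Control and against Stat3KO (2.40, edgeR adjusted p = 0.0808, and 2.69, edgeR adjusted p = 0.0889). Counts of all genes called varied with the tool and the libraries: edgeR against DESeq2 gave 135 and 442 for Ikkβca against Control, 125 and 476 for Ikkβca+Stat3KO against Control, 65 and 297 for Ikkβca+Stat3KO against Stat3KO, 384 and 860 averaged over Stat3 status, and 37 and 402 averaged over kinase status. Fitting only the groups compared gave 61 and 14 genes in Ikkβca and Ikkβca+Stat3KO against Control, and library totals 66 and 53. Leaving out 1 library gave 42 to 145, 43 to 147, 20 to 81, 184 to 444 and 0 to 52 for the same 5 comparisons. At 0 to 16 reads per library, Il12b, Il12a, Il17a and Il17c are limited by depth.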

Other observations

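Some further cytokine genes around the axis gave few reads in these epithelia. Il1b, which encodes the interleukin that acts with IL-23 on such cells, had 4, 4 and 0 reads in Ikkβca+Stat3KO, 5, 10 and 3 in Ikkβca, 1, 1 and 2 in Stat3KO and 2, 0 and 5 in Control. Ikkβca had 18 reads against 7 in Control, a ratio of 2.50 with an exact counting interval from 0.996 to 7.08 and an exact permutation p of 0.2. The groups overlapped. Csf3, encoding the neutrophil growth factor G-CSF, had 0, 5 and 0 reads in Ikkβca+Stat3KO, 8, 4 and 0 in Ikkβca, 0, 1 and 2 in Stat3KO and 0, 4 and 0 in Control. Il6, a STAT3-activating cytokine gene, had 3 reads in Stat3KO replicate 2 and 0 in the other 11 libraries.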
